A study of Mus musculus with 17 samples.

Results

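10 genes of the vessel wall that carry leukocyte adhesion were followed here: the selectins Sele and Selp, the immunoglobulin-family ligands Icam1, Icam2 and Vcam1, and the junctional or surface adhesion genes Pecam1, Cd99l2, Mcam, Esam and Cdh5. They were chosen by name, with earlier results of these data known. All 10 were found by their Ensembl identifiers among the 42687 genes counted in 17 libraries of mouse cortical microvessels. The mice were 10 to 11 months old. They were of wild-type genotype (WT) or APP/PS1 transgenic, a model of amyloid deposition that the sample labels write as APP. Every mouse received 10 mg/kg of a peptide intraperitoneally at intervals of 2 days for 2 weeks, either gp91-ds-tat, an inhibitor of the superoxide-producing NADPH oxidase NOX2, or sgp91-ds-tat as control. The groups were WT with control peptide (WT_SC, n = 5), WT with inhibitor (WT_NOX2, n = 5), APP/PS1 with control peptide (APP_SC, n = 2) and APP/PS1 with inhibitor (APP_NOX2, n = 5). The labels write the treatment as NOX2 or SC, which were read as inhibitor and control peptide. Vessels of all groups came from the ipsilateral cortex after a surgery that the labels do not describe, and no group lacked a peptide, so an untreated level was not measured. The labels do not say whether a library is 1 mouse, so the spread between libraries may be partly technical.

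Leukocytes leave the blood in steps. Endothelial selectins catch rolling cells by their sugar ligands, ICAM and VCAM proteins then bind leukocyte integrins and stop the cell, and junctional molecules such as PECAM-1 and CD99L2 guide it through the wall. E-selectin, P-selectin, ICAM-1 and VCAM-1 are induced by inflammatory cytokines, largely through NF-kB, and in the brain mostly in venules, while ICAM-2, PECAM-1 and VE-cadherin are carried by resting endothelium.

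The promoters of the inducible members are shown because the results below turn on genes that were high together in a single library. Promoters came from a partial table of RefSeq promoters (assembly GRCm38.p6), in which Sele, Selp, Icam1, Mcam and Cd99l2, 5 of the 10 members, were matched. The 250 bases before the annotated start are printed 5′ to 3′ on the gene's strand, with motif matches in capitals.
Sele, chr1:164047984-164048233 (+): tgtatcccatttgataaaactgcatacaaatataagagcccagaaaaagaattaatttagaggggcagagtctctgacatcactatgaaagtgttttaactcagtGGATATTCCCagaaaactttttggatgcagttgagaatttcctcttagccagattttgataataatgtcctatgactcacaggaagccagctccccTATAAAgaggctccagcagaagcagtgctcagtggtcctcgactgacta
Selp, chr1:164115014-164115263 (+): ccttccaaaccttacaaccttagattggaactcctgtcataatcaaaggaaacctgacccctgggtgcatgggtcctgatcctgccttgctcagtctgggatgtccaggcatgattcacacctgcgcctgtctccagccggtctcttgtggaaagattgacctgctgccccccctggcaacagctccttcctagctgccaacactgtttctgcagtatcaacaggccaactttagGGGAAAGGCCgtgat
Icam1, chr9:21015690-21015939 (+): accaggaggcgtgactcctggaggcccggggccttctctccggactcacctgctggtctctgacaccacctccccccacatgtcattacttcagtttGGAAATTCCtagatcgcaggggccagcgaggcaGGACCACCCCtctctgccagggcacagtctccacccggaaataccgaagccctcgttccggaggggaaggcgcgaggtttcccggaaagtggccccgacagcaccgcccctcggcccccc
Both strands were searched for the NF-kB decamer GGGNNNNNCC, the shorter NF-kB core GGANNTTCC and the TATA box TATAAA. Sele held GGATATTCCC at 145 to 136 bases before its start, where a decamer on the minus strand and a core on the plus strand overlap. It also held TATAAA at 49 to 44. Selp held the decamer GGGAAAGGCC at 15 to 6. Icam1 held the core GGAAATTCC at 153 to 145, matched on both strands, and the minus-strand decamer GGACCACCCC at 120 to 111. Mcam, whose window is 73.6% G or C, held 7 decamer matches that partly overlap, and Cd99l2 held none of the motifs. The decamer is common: it lay in 45.8% of 32851 promoter windows of this length, against 3.59% for the core and 12.4% for TATAAA. The RefSeq start of Icam1 lies 45 bases before that of GENCODE. That of Mcam lies 189 bases after it, so that its window is mostly inside the GENCODE gene, as are all 7 of its matches.

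Library depth was 7316503 to 17862965 counts, so that 3 counts, taken as the smallest usable level, amounted to 0.174 to 0.390 CPM (counts scaled to the normalised library size). All 8 endothelial markers that are no members (Cldn5, Flt1, Tie1, Tek, Slco1a4, Ly6c1, Abcb1a and Slc2a1) were above 0 in every library, and their summed level was 2552 to 4623 CPM. Markers of pericytes and astrocytes, which the cell type label also names, were present. The summed neuron markers ran from 2415 to 4096 CPM and the summed choroid plexus markers from 33.0 to 8302 CPM. The part of cells outside the vessel wall in the levels of the members was not tested. In such bulk samples, fewer cells of a type and less RNA per cell cannot be told apart. A single library stood apart for these genes: WT_NOX2 replicate 2. Results that rest on it are given with and without it.

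Sele encodes E-selectin and lies at chr1:164048234-164057677 on the plus strand of GRCm38 (ENSMUSG00000026582). It was at 15 counts or fewer in 16 libraries and at 427 in 1. In WT_SC the 5 libraries gave 7, 2, 8, 1 and 15 counts, or 0.405, 0.209, 0.813, 0.0893 and 1.57 CPM. In WT_NOX2 the counts were 3, 427, 2, 1 and 3, or 0.281, 27.7, 0.179, 0.130 and 0.233 CPM. Replicate 2 stood far above every other library, and the other 4 of its group lay within the range of WT_SC. The 2 APP_SC libraries held 2 and 4 counts (0.121 and 0.333 CPM) and the 5 APP_NOX2 libraries 2, 8, 4, 4 and 4 (0.126, 0.591, 0.434, 0.363 and 0.328 CPM). In 8 of 17 libraries Sele was at or under 3 counts. The rate in WT_NOX2 replicate 2 was 75.2 times that of the other 16 libraries pooled (95% interval 58.3 to 98.3, exact binomial, covering counting error only).

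Selp encodes P-selectin, which endothelium and platelets store in granules, and lies at chr1:164115264-164150026 (+, ENSMUSG00000026580). Its counts were 2, 1, 4, 9 and 9 in WT_SC and 2, 167, 8, 1 and 0 in WT_NOX2. These were 0.116, 0.105, 0.406, 0.804 and 0.941 CPM in the first group and 0.187, 10.8, 0.718, 0.130 and 0 in the second. The 0 was found in replicate 5, where 3 counts would be 0.233 CPM. APP_SC gave 2 and 14 counts (0.121 and 1.16 CPM), and APP_NOX2 gave 1, 11, 2, 5 and 8 (0.0632, 0.812, 0.217, 0.454 and 0.656 CPM). The same WT_NOX2 library was again far above all others, 26.1 times their pooled rate (95% interval 19.8 to 34.5, counting error only), and the remaining libraries of the 4 groups overlapped. A pair of noncoding genes on the other strand share 624 exon bases with Selp, and whether the counting used strand is not given in the sources used here, so its low counts are uncertain. F5, the coagulation factor V gene next to Selp, was at 21.8 CPM in that library, inside its range elsewhere of 8.91 to 160.4.

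Icam1 encodes ICAM-1, the inducible ligand of the β2 integrins LFA-1 and Mac-1, and lies at chr9:21015985-21028817 (+, ENSMUSG00000037405). It was measured well in every library. WT_SC gave 36.5, 7.54, 17.4, 19.6 and 9.73 CPM, and WT_NOX2 gave 14.7, 97.6, 37.2, 14.2 and 9.79. WT_NOX2 replicate 2 was the highest, and the next were WT_NOX2 replicate 3 and WT_SC replicate 1, so that the WT libraries spread more widely than the APP/PS1 ones. APP_SC gave 17.3 and 19.1 CPM, and APP_NOX2 gave 11.4, 23.0, 11.4, 12.7 and 19.2, all inside the range of WT_SC. The rate in WT_NOX2 replicate 2 was 5.34 times that of the other 16 libraries (95% interval 5.02 to 5.67, counting error only). The neuronal Icam5 was at 143 CPM there, inside its range elsewhere of 106.6 to 214. Icam4, which begins 555 bases beyond Icam1, was at 0.0648 CPM in that library, where 3 counts would be 0.1945 CPM. Icam4 did not pass the filter on low counts, so its level cannot be read. An antisense gene, Gm47079, shares 511 exon bases with Icam1.

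Vcam1 encodes VCAM-1, the ligand of the α4 integrins of monocytes and lymphocytes, and lies at chr3:116109949-116129688 (−, ENSMUSG00000027962). WT_SC gave 148, 61.0, 113, 138 and 76.2 CPM, and WT_NOX2 gave 107, 350.0, 173, 124 and 71.8. APP_SC gave 116 and 114 CPM, and APP_NOX2 gave 76.0, 152, 99.5, 72.2 and 123. The order was much that of Icam1, with WT_NOX2 replicate 2 at 3.13 times the pooled rate of the others (95% interval 3.04 to 3.23, counting error only) and replicate 3 of that group next. Apart from replicate 2, the ranges of the 4 groups overlapped.

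**Figure D1:**
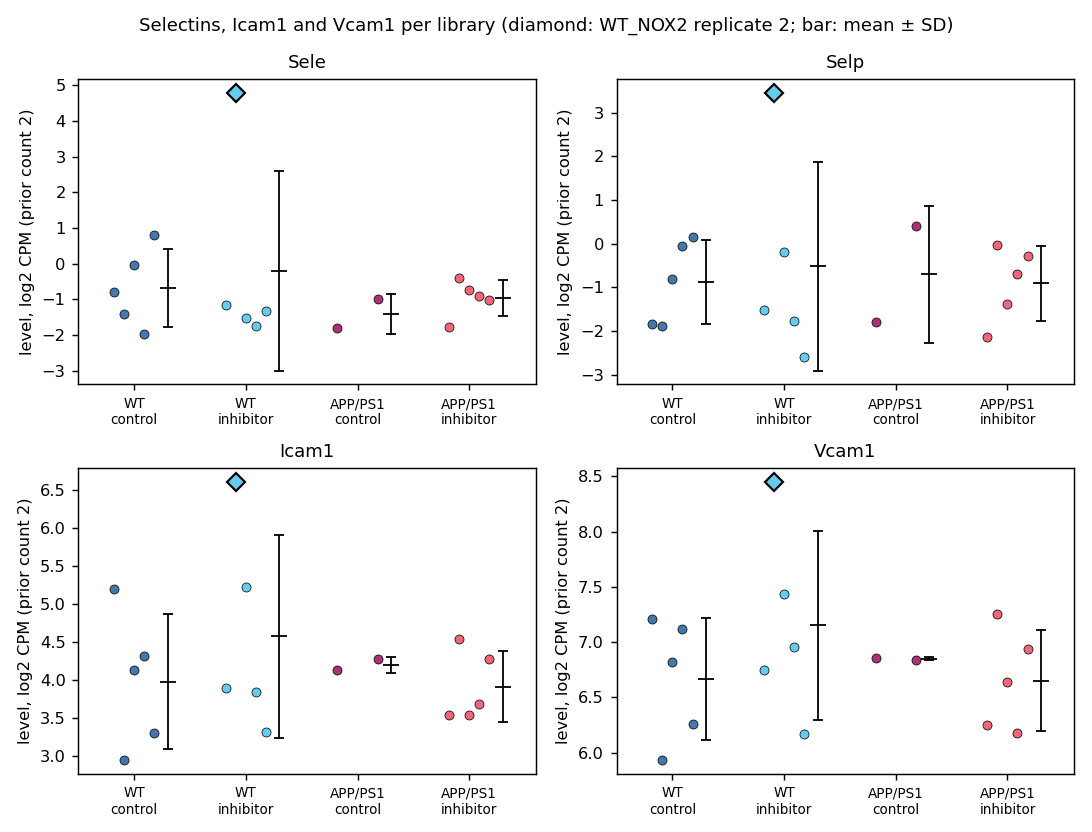
Level of Sele, Selp, Icam1 and Vcam1 in each of the 17 libraries by group, as log2 CPM with a prior count of 2. Each point is a library, the diamond is WT_NOX2 replicate 2, and the bar is the group mean ± SD; the diamond is the highest point in all 4 panels, and the other libraries of the 4 groups overlap.

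The constitutive members did not follow. Pecam1 (PECAM-1, a homophilic junction molecule that passing leukocytes engage; chr11:106654217-106750628, −) was at 288, 189.9, 228, 332 and 213 CPM in WT_SC, and at 262, 279, 308, 255 and 227 in WT_NOX2. It was at 249 and 285 CPM in APP_SC and at 209, 307, 189.9, 180.2 and 334 in APP_NOX2. All 4 groups covered much the same range, and WT_NOX2 replicate 2 ranked 7 of 17. Cdh5 (VE-cadherin, the adherens junction protein of endothelium; chr8:104101625-104144511, +) was at 219, 180.4, 241, 321 and 169 CPM in WT_SC and at 249.7, 269, 205, 240.0 and 213 in WT_NOX2. Its APP_SC libraries were at 260.2 and 262 CPM and its APP_NOX2 libraries at 207, 309, 187, 150.3 and 322, again overlapping.

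Icam2 (ICAM-2, the resting ligand of LFA-1; chr11:106377656-106388075, −) was at 11.6, 9.64, 13.3, 24.3 and 10.7 CPM in WT_SC and at 18.4, 17.4, 11.9, 16.6 and 14.6 in WT_NOX2. It was at 19.4 and 21.8 CPM in APP_SC and at 11.2, 20.9, 18.8, 12.5 and 34.7 in APP_NOX2. The APP/PS1 libraries had a higher median (19.4 CPM, n = 7) than the WT libraries (14.0 CPM, n = 10), with overlapping ranges. Esam (an immunoglobulin-family molecule of endothelial tight junctions and platelets; chr9:37528078-37538319, +) ran from 63.8 to 117 CPM over the 17 libraries. Mcam (CD146, found on endothelium and pericytes; chr9:44134469-44142727, +) ran from 32.0 to 64.2 CPM. Cd99l2 (a CD99 relative that acts in late transmigration; chrX:71420060-71492849, −) ran from 65.5 to 104 CPM and was the steadiest on the CPM scale, with a coefficient of variation of 12.8%. For these 6 genes the rate in WT_NOX2 replicate 2 was between 0.916 (Esam) and 1.14 (Cdh5) times the pooled rate of the other libraries. APP_NOX2 replicate 5 was the highest of 17 for 5 of these 6 genes, and APP_NOX2 replicate 2 for the other, Mcam; replicate 5 also had the highest endothelial marker sum, 4623 CPM.

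**Figure D2:**
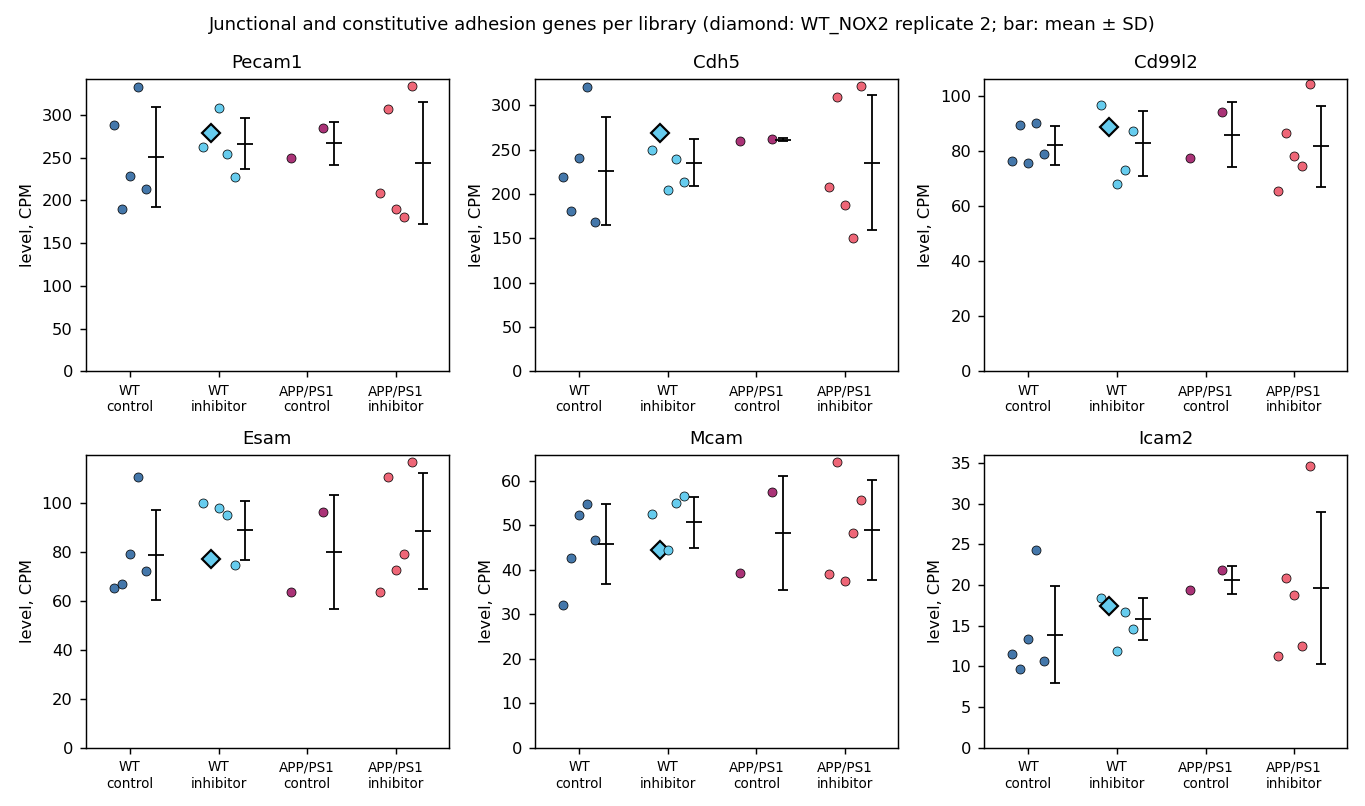
Level of Pecam1, Cdh5, Cd99l2, Esam, Mcam and Icam2 in each library by group, in CPM from 0. Each point is a library, the diamond is WT_NOX2 replicate 2, and the bar is the group mean ± SD; the diamond lies among the other points in every panel, and the groups overlap.

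Levels of different genes were compared per kilobase of exon. In WT_SC, Cdh5 was the highest at 53.8 ± 14.4 CPM per kb (SD, n = 5), followed by Pecam1 at 40.2 ± 9.39 and Esam at 27.5 ± 6.47, and each of these overlapped its neighbour. Esam lay clear of Cd99l2 at 16.7 ± 1.45 CPM per kb. Below it, Mcam at 13.6 ± 2.68, Vcam1 at 12.1 ± 4.28, Icam2 at 7.30 ± 3.13 and Icam1 at 4.17 ± 2.62 overlapped one by one. Sele at 0.212 ± 0.206 and Selp at 0.108 ± 0.0875 CPM per kb were the lowest, clear of Icam1 but not of each other. The order was the same in APP_NOX2. In WT_NOX2, Vcam1 at 18.6 ± 12.3 CPM per kb stood above Cd99l2 at 16.9 ± 2.40, with overlap. Without replicate 2 of that group, Vcam1 was at 13.4 ± 4.73 (SD, n = 4), below Cd99l2 at 16.6 and Mcam at 15.6. In APP_SC Selp stood above Sele, with overlap.

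For the NOX2 inhibitor in WT mice, no member passed the test. With edgeR's quasi-likelihood test and Benjamini-Hochberg adjustment over 18753 genes, 0 of 10 members were called, where 0% of all genes were. At an unadjusted p under 0.05, Sele and Selp passed, 2 of 10 members against 1.34% of all genes. Sele had a log2 change of 3.32 ± 1.17 (SE, unadjusted p = 0.0104 from edgeR, adjusted p = 1) and Selp of 2.48 ± 1.07 (unadjusted p = 0.0327 from edgeR). Icam1 had a log2 change of 0.93 ± 0.52 and Vcam1 of 0.62 ± 0.34. All 10 estimates were above 0, with a median of 0.18 against 0.00 over all genes tested, and the groups overlapped for every member, as they did for all but 0.224% of genes. Without WT_NOX2 replicate 2 the estimates changed: Selp went to -0.77 ± 0.93, Icam1 to 0.04 ± 0.41 and Vcam1 to 0.15 ± 0.27. Sele then fell out of the filter on low counts, which it passed only through that library and WT_SC replicate 5. Fitted without the filter and without that library, its estimate was -1.47 ± 0.69 (unadjusted p = 0.0432, adjusted p = 1, edgeR). Of the 9 members still tested, 7 estimates were above 0 with a median of 0.07, and none had an unadjusted p under 0.05, where 1.66% of 18704 genes did. The 6 constitutive members stayed between -0.01 (Cd99l2) and 0.22 (Esam).

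**Figure D3:**
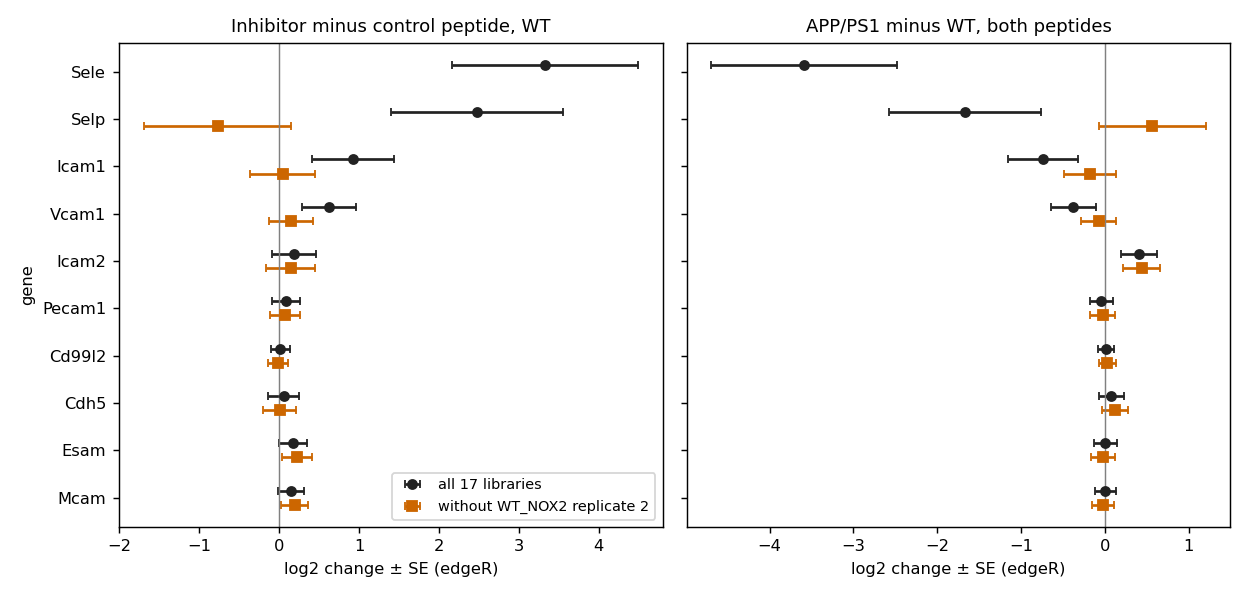
Log2 change ± SE of the 10 members from edgeR, for inhibitor against control peptide in WT (left) and APP/PS1 against WT over both peptides (right). Circles are fits to all 17 libraries and squares are fits without WT_NOX2 replicate 2, where Sele was not tested; the squares of Selp, Icam1 and Vcam1 lie nearer to 0 or across it, and the constitutive genes hardly move.

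In APP/PS1 mice, where there were 2 control libraries, the inhibitor gave 0 of 10 members called by edgeR, against 0% of all genes, and 0 of 10 at an unadjusted p under 0.05, against 1.8%. Sele had a log2 change of 0.72 ± 2.41, Selp of -0.43 ± 1.58, Icam1 of -0.22 ± 0.68 and Vcam1 of -0.14 ± 0.44. The direction for Selp turned with the control library left out, at -1.38 without APP_SC replicate 1 and 1.77 without APP_SC replicate 2. Sele was at 0.11 and 1.49 in the same fits. The constitutive members lay between -0.15 (Cdh5) and 0.15 (Esam). The median of the members was -0.10, against 0.00 over all genes, and the groups overlapped for every member, where 4.63% of all genes had groups that did not. The difference of the inhibitor's effect between genotypes also called none by edgeR, against 0% of all genes. All 10 of its estimates were below 0, from -0.03 (Esam) to -2.91 ± 1.97 (Selp), and 0 of 10 had an unadjusted p under 0.05, against 0.843% of all genes. Without WT_NOX2 replicate 2, that estimate for Selp was 0.34 ± 1.30 and for Icam1 -0.27 ± 0.65. For Sele it went from -2.60 ± 3.13 to 2.19 ± 1.10 (unadjusted p = 0.058, adjusted p = 1, edgeR), fitted with no filter. Over both genotypes, 0 of 10 members were called, against 0% of all genes, and Sele alone had an unadjusted p under 0.05, against 2.11% of all genes. Its log2 change there was 2.97 ± 1.07 and, without that library and fitted with no filter, -0.60 ± 0.55. None of the 9 members still tested then had such a p, against 3.61% of all genes.

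The genotype comparisons likewise called none of the 10 members with edgeR. With control peptide, 0.0533% of all genes were called, and the largest member estimates were -1.42 ± 2.28 for Sele and 0.57 ± 0.35 for Icam2 (unadjusted p = 0.125, edgeR). None had an unadjusted p under 0.05, against 3.97% of all genes (4.23% without WT_NOX2 replicate 2, which is in neither group), and the median was 0.09. The groups overlapped for every member, where 7.53% of all genes had groups that did not. With inhibitor, 0.181% of all genes were called. Sele (-4.02 ± 1.24, adjusted p = 0.659), Selp (-2.51 ± 1.06) and Icam1 (-1.17 ± 0.52) had an unadjusted p under 0.05 by edgeR, 3 of 10 against 3.38% of all genes. Without WT_NOX2 replicate 2 none of the 9 members tested did, against 5.03%, and the estimates were 0.73 ± 0.92 for Selp and -0.28 ± 0.41 for Icam1. For Sele, fitted with no filter, it was 0.76 ± 0.72. The groups overlapped for every member, as they did for all but 0.784% of genes. These comparisons share libraries with those of the inhibitor: WT_NOX2 is the treated group there and the reference here.

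Over both peptides, 0.587% of all genes were called between genotypes and again no member. Sele had a log2 change of -3.59 ± 1.11 (unadjusted p = 0.00419, adjusted p = 0.303, edgeR), the only unadjusted p under 0.05 among the 10, against 6.38% of all genes. Without WT_NOX2 replicate 2 none of the 9 members tested was called, against 0.588% of all genes, or had an unadjusted p under 0.05, against 9.22%. Fitted with no filter, Sele was then at -0.18 ± 0.56. The groups overlapped for every member, as they did for all but 0.272% of genes. Selp went from -1.67 ± 0.91 to 0.57 ± 0.64, Icam1 from -0.74 ± 0.42 to -0.18 ± 0.31 and Vcam1 from -0.38 ± 0.27 to -0.07 ± 0.21. Icam2 hardly moved in that step: it was 0.40 ± 0.21 (adjusted p = 0.817, edgeR) with all libraries and 0.44 ± 0.22 (adjusted p = 0.572, edgeR) without that one. Without APP_NOX2 replicate 5, its highest library, it was 0.23. With the endothelial marker sum as a covariate, an alternative added after the data were seen, Icam2 was at 0.42 ± 0.14 (unadjusted p = 0.00854, adjusted p = 0.281, edgeR), which does not pass. Scaled to 1000 CPM of endothelial markers, it was 4.08 ± 0.877 CPM in WT (SD, n = 10) and 5.49 ± 1.16 in APP/PS1 (SD, n = 7). The other constitutive members lay between -0.05 (Pecam1) and 0.08 (Cdh5).

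How the members varied together is given as correlations of log2 CPM over 17 libraries, which differed in depth and cell content. The part of these differences in the correlations was not tested. Icam1 and Vcam1 had a Pearson r of 0.96 (Spearman rho 0.92), and r was 0.91 over the 16 libraries without WT_NOX2 replicate 2. Sele and Selp had r = 0.80 (rho 0.49), and 0.41 without that library, so their likeness was carried largely by 1 point. Sele had r = 0.61 with Icam1 over all libraries and -0.09 without it. Pecam1 and Cdh5 had r = 0.84, and 0.83 without it. Pecam1 was also close to the inducible ligands once that library was left out: its r with Vcam1 went from 0.69 to 0.84 and with Icam1 from 0.63 to 0.77. Pecam1 followed the endothelial marker sum most closely, with r = 0.98 with or without that library, and per 1000 CPM of those markers it was 70.8 ± 2.73 CPM (SD, n = 17), a coefficient of variation of 3.86% against 19.6% unscaled. Cdh5 went from 21.9% to 10.8% by the same scaling. Icam1 and Vcam1 also tracked the endothelial sum among the 16 other libraries, with r = 0.78 and 0.86. Over all 17 libraries, r with that sum was 0.68 for Esam, 0.65 for Icam2, 0.44 for Cd99l2 and 0.31 for Mcam. It was 0.34 for Selp and 0.02 for Sele. The scaling raised the coefficient of variation of Cd99l2 from 12.8% to 17.1% and of Mcam from 17.8% to 20.1%. It lowered that of Esam from 21.1% to 14.6% and of Icam2 from 37.2% to 25.8%.

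**Figure D4:**
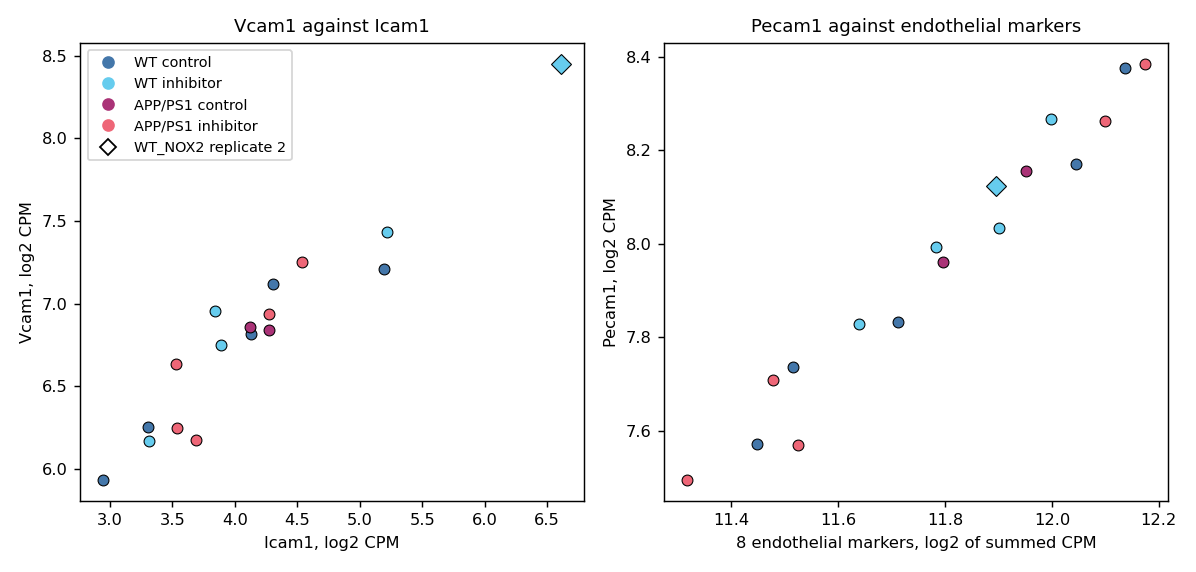
Left, Vcam1 against Icam1, and right, Pecam1 against the summed level of the 8 endothelial markers, both as log2 CPM. Each point is 1 of the 17 libraries, coloured by group, and the diamond is WT_NOX2 replicate 2; it lies at the upper end of the Icam1 and Vcam1 relation and in the middle of the Pecam1 relation.

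The 3 genes most like each member over the 17 libraries, by Pearson r among all genes tested, were as follows. For Sele they were Rgs16 (0.82), Ptgs2 (0.81) and Ackr1 (0.81), and without WT_NOX2 replicate 2 r was 0.03, 0.31 and 0.13. For Selp they were Ier3 (0.81), Sele (0.80) and Cytip (0.72). For Icam1 they were Vcam1 (0.96), Csf1 (0.91) and Cxcl1 (0.88), and for Vcam1 they were Icam1, Ier3 (0.90) and Tnfaip3 (0.88). Csf1 kept r = 0.84 and Tnfaip3 r = 0.79 without that library. The constitutive members were most like other genes: Pecam1 was most like Flt4 (0.96), Cast (0.96) and Adgrf5 (0.95), and Cdh5 most like Wwtr1 (0.99), Flt1 (0.97) and Arhgap31 (0.96). Icam2 was most like Dusp3 (0.94), Vim (0.93) and 2510009E07Rik (0.93), and Esam most like Nbl1 (0.97), Adgra2 (0.97) and Ftl1 (0.96). Mcam was most like Syt15 (0.93), Slc40a1 (0.92) and Akr1c14 (0.92), and Cd99l2 most like Fut8 (0.92), Hcn2 (0.91) and Tmem121 (0.90).

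WT_NOX2 replicate 2 was the highest of 17 libraries for 790 genes, 4.21% of those tested, and over 2-fold above every other library for 12 genes, 0.064% of those tested. Sele, Selp, Icam1 and Vcam1 were 4 of these 12, with gaps to the next library of 4.01, 3.05, 1.39 and 1.02 on the log2 scale. In the other libraries 0 to 6 genes stood out in this way, and no member among them. The other 8 genes, chosen after their values were seen, included Cxcl1, a chemokine that attracts neutrophils, at 9.47 CPM against 0.0907 to 1.35 elsewhere. Cxcr2, the receptor for it on neutrophils, was at 2.46 CPM against 0 to 1.05. Ackr1, a chemokine-binding receptor of venules, was at 101 CPM against 19.8 to 44.0, and Ptgs2, an inducible prostaglandin synthase, at 119 against 28.8 to 56.2. Ch25h, an inducible cholesterol hydroxylase, was at 19.8 CPM against 0.466 to 8.89, and Bcl3, a cofactor of NF-kB, at 16.1 against 2.30 to 7.64. Rgs16, a regulator of G-protein signalling, was at 30.7 CPM against 3.65 to 7.28, and Serpina3f, a serpin, at 8.56 against 0 to 2.66. All 8 were matched in the promoter table. Among them only Cxcl1 held the core GGANNTTCC, which lay in 3.59% of all windows. The decamer, which lay in 45.8% of all windows, was held by Cxcl1, Rgs16, Serpina3f, Ch25h, Cxcr2, Ptgs2 and Bcl3 but not by Ackr1. Serpina3f had a pair of windows and held it in the upstream window only. The use of these matches was not tested.

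**Figure D5:**
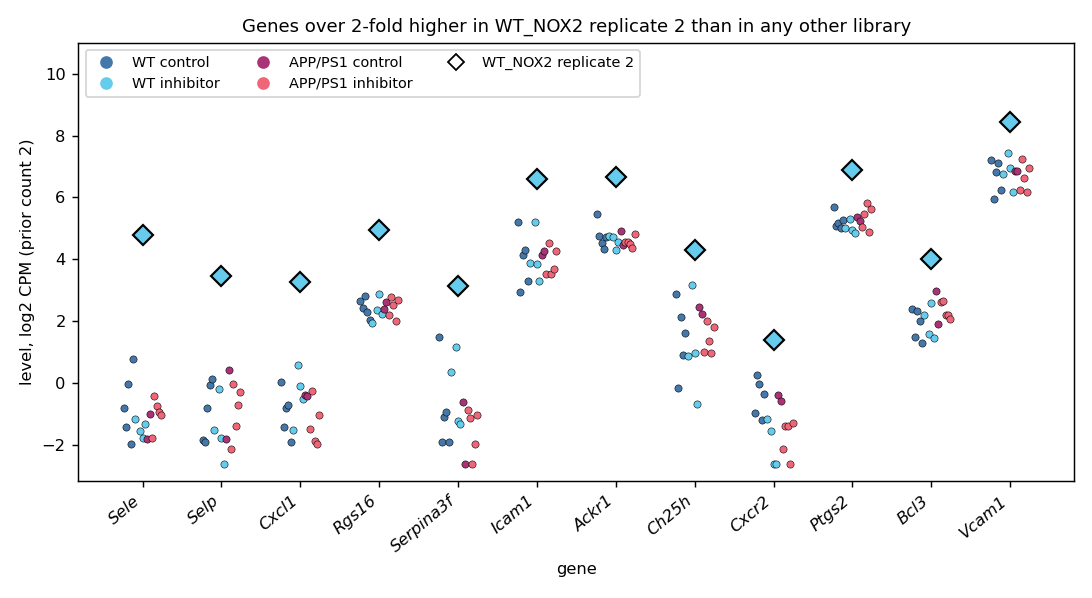
Level of the 12 genes that were over 2-fold higher in WT_NOX2 replicate 2 than in any other library, as log2 CPM with a prior count of 2. Each point is 1 of the 17 libraries, coloured by group, and the diamond is WT_NOX2 replicate 2; Sele, Selp, Icam1 and Vcam1 are among the 12, and Sele has the widest gap.

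Summed markers of neutrophils, platelets and red cells were higher in that library than in the rest of its group, and those of lymphocytes were not (1.81 CPM, in a group range of 0.898 to 2.15). The summed neutrophil markers (9 genes, Cxcr2 among them) were at 12.6 CPM there against 1.24 to 2.15 in the rest of WT_NOX2. Camp was at 0 in 11 libraries and Ly6g in 15, WT_NOX2 replicate 2 being 1 of the latter. APP_SC replicate 2 had as much neutrophil signal (12.8 CPM) and APP_NOX2 replicate 1 had 9.98, and Sele was at 0.333 and 0.126 CPM in these. The sums held different genes, however. S100a8 (3.18 CPM), S100a9 (2.20), Retnlg (1.62), Mmp8 (1.30) and Cxcr2 were highest of the 17 libraries in WT_NOX2 replicate 2. Ngp, Ltf, Camp and Ly6g were highest elsewhere, so equal sums do not stand for equal neutrophil content. Platelet markers (7 genes) were at 16.3 CPM against 8.08 to 10.1 in the rest of the group, while WT_SC replicate 4 had 27.8 with 0.804 CPM of Selp. Erythroid markers (5 genes) were at 31.7 CPM against 1.35 to 16.9 in the rest of the group, while APP_NOX2 replicate 2 had 38.0. Of these markers, Hba-a1 was at 0 in 14 libraries and Hba-a2 in 15. Endothelial markers, at 3809 CPM, lay inside the range of the group, 3189 to 4091, and venous markers, which hold Ackr1, at 814 CPM inside 478 to 937. The part of blood cells in the levels of Sele, Selp, Icam1 and Vcam1 was not tested.

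Genes of the same pathway, in lists chosen with earlier results of these data known, were read from the same edgeR fits. Of 12 counter-receptors on leukocytes, 2 rose in APP/PS1 over both peptides, against 0.587% of all genes. Itgb2, the β2 integrin chain that binds ICAM-1 and ICAM-2, had a log2 change of 0.77 ± 0.16 (adjusted p = 0.0187, edgeR). It was at 10.1 ± 2.87 CPM in APP/PS1 (SD, n = 7) and 5.95 ± 1.02 in WT (SD, n = 10), in overlapping ranges of 6.51 to 13.1 and 4.61 to 7.77. Itgam, its α chain in Mac-1, had a log2 change of 0.88 ± 0.20 (adjusted p = 0.0456, edgeR), with 3.27 to 6.0 CPM in APP/PS1 and 1.44 to 4.02 in WT. Itgb2 lost its call in 3 of 23 alternatives, without WT_NOX2 replicate 5 (adjusted p = 0.0548), APP_SC replicate 2 (0.133) or APP_NOX2 replicate 2 (0.0533). Itgam lost its call in 14 of 23, each the loss of a single library other than WT_SC replicate 4, WT_NOX2 replicate 2 or APP_NOX2 replicate 4, with adjusted p from 0.0517 to 0.266 by edgeR. Both changes stayed above 0 in all 23. Microglia also express both genes, and the 7 microglial markers summed to 241 to 414 CPM in APP/PS1 and 195 to 268 in WT. Their part in the change was not tested. The median of the counter-receptors was 0.10, against 0.00 over all genes. At an unadjusted p under 0.05 by edgeR, 3 of the 12 passed, against 6.38% of all genes. Itgal, the α chain of LFA-1, was at 0.12 ± 0.32, and Cd24a, a selectin ligand, at 0.09 ± 0.17. Selplg, another selectin ligand, was not called. It was at 30.7 ± 5.31 CPM in APP/PS1 (SD, n = 7) and 18.3 ± 7.23 in WT (SD, n = 10). Its ranges of 23.8 to 38.2 and 12.4 to 36.2 overlapped.

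The other 5 lists held no gene that passed in any of the 7 comparisons. Of enzymes that build selectin ligands, 9 of 12 were tested: Chst2, a sulfotransferase, was at 0.26 ± 0.08 between genotypes over both peptides (adjusted p = 0.366, edgeR), Fut9 at -0.06 ± 0.12 and St3gal6 at 0.18 ± 0.11. Of NF-kB and cytokine receptor genes, 16 of 16 were tested. Nfkb2 was at 0.41 ± 0.24 and Nfkb1 at 0.11 ± 0.08 for the inhibitor in WT, and Tnfaip3, an NF-kB target that restrains the pathway, at 0.19 ± 0.20. Without WT_NOX2 replicate 2 these were 0.21, 0.09 and -0.03. Tnfrsf1b, a TNF receptor, was at 0.23 ± 0.14 between genotypes. Of genes that respond to cytokines, 9 of 13 were tested. Cxcl1 was at 2.52 ± 0.81 for the inhibitor in WT (adjusted p = 1, edgeR), and fell out of the filter without WT_NOX2 replicate 2. Lcn2, an iron-siderophore binder, was at -2.89 ± 0.80 between genotypes (adjusted p = 0.166, edgeR), Lrg1 at -0.67 ± 0.41 and Cxcl10 at 1.12 ± 0.41. Of other adhesion genes, 15 of 17 were tested, with Nectin2 at 0.24 ± 0.15 and Jam3 at 0.14 ± 0.11 for the inhibitor in WT and Cd9 at 0.28 ± 0.12 and Pvr at 0.14 ± 0.10 between genotypes. Of the partners of VE-cadherin, 12 of 12 were tested, with Vcl, which anchors junctions to actin, at 0.13 ± 0.10, Afdn at 0.02 ± 0.06 and Rap1b at 0.10 ± 0.10 between genotypes.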

How the data were processed

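Microvessels were isolated by centrifugation through dextran and RNA was extracted on columns, per the labels' protocols. The deposited values are raw counts for each Ensembl gene, whole and not normalised. The submitters' processing notes name cutadapt, STAR, HTSeq and DESeq2 and the builds mm10 and GRCh37, without versions or roles, and the annotation and use of strand are not given in the sources used here. A further 20 columns matched no sample and were not used. Symbols, exon lengths and coordinates came from GENCODE for GRCm38, the assembly of mm10, and 437 of 42687 genes had no symbol. Members and gene lists were chosen with earlier results of these data known.

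Counts were scaled by TMM, filtered with filterByExpr (minimum count 10, smallest group 2) to 18753 genes and fitted with edgeR 4.0.16 in R 4.3.3. A mean per group gave 5 of the 7 comparisons and an additive model of genotype and peptide the 2 overall ones. Tests were quasi-likelihood, two-sided and Benjamini-Hochberg adjusted over all genes, with a threshold of 0.05. All 10 members passed the filter, Sele through 2 libraries and Selp through 3. Log2 CPM used a prior count of 2. The named genes were all members, the 3 genes most correlated with each, and in each pathway list the genes past the threshold and the 2 with the smallest p for the inhibitor in WT and for genotype over both peptides. Selplg was added after its values were seen. Summed markers covered 16 cell types. Alternatives were no filter, DESeq2 size factors within edgeR, DESeq2 1.42.0, voom with quality weights in limma 3.58.1, and leaving out each library; the endothelial covariate, and no filter without WT_NOX2 replicate 2, were chosen after seeing the data. The fits were tested on simulated data, with changes planted across whole groups in genes of higher mean count. No gene as low as Sele or Selp was changed there, and no single library was set apart. No pair of libraries held identical counts.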

Additional observations from a re-analysis of the deposited data

Results flagged for a closer look

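A single member and group was set apart by a gap test. Sele in WT_NOX2 replicate 2 was at 4.80 on the log2 CPM scale while the other 4 libraries of the group lay between -1.76 and -1.17. The gap to the nearest of them was 0.909 of the range of the group, above Dixon's 95% critical value of 0.71 for 5 samples. The test was run 30 times, on each member in each group of 5 libraries, and chance would give about 1.5 such results, so the 1 found is within that number. That number counts results past the critical value and does not weigh the size of a gap. The other 4 libraries of the group held 3, 2, 1 and 3 counts of Sele. No member passed the test of a difference in the inhibitor's effect between genotypes, and the part of blood cells in the Sele level was not tested.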

How the results depend on the processing

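No member passed the threshold in any of 1240 alternative values, of which 14 (DESeq2 for Sele and Selp) had no p. Of 448 alternative values of the 23 member changes larger than their SE, 426 kept their direction and 22 turned, all of them without WT_NOX2 replicate 2 or with voom's quality weights. With voom's quality weights, Selp was at 0.68 for genotype with inhibitor, -0.72 for inhibitor in WT, 0.84 for the difference between genotypes, 0.53 for genotype over both peptides and -0.49 for inhibitor over both genotypes. Sele was at -0.44 for inhibitor in WT and -0.08 over both genotypes. Without WT_NOX2 replicate 2, Selp was in the same order at 0.73, -0.77, 0.34, 0.57 and -0.60, and Icam1 was at -0.06 for inhibitor over both genotypes. Without it and with no filter, Selp was at 0.74, -0.79, 0.35, 0.58 and -0.62, Sele at 0.76, -1.47 and -0.60 for genotype with inhibitor, inhibitor in WT and inhibitor over both genotypes, and Icam1 at -0.07 for the last. For the difference between genotypes, where its estimate of -2.60 was within its SE, Sele turned to 1.27 with voom and 2.19 without WT_NOX2 replicate 2 and no filter. Leaving out other libraries gave -2.88 for Selp at the far end for genotype with inhibitor, 2.86 for inhibitor in WT, -3.86 for the difference, -2.44 for genotype over both peptides and 2.40 for inhibitor over both, where Icam1 reached 0.69.

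Of all genes, 10 were called for genotype with control peptide, against 45 by DESeq2, 43 by voom, 20 with the endothelial covariate and 4 (without APP_SC replicate 2) to 17 (without WT_SC replicate 4) without a library. For genotype with inhibitor, 34 became 61 by DESeq2, 64 with the covariate, and 15 (without WT_NOX2 replicate 5 or APP_NOX2 replicate 2) to 38 without a library. For genotype over both peptides, 110 became 182 by DESeq2 and 70 (without APP_SC replicate 2) to 125 without a library; beyond the dropped library or method, the cause was not tested. Fits with 1 APP_SC library assume that it varies like the other groups. No paired analysis was possible because the labels carry no replicate numbers, and numbers were given in accession order. At 3 or fewer counts in 8 libraries each, differences in Sele and Selp among the other 16 libraries were at the limit of this depth.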
